A study of Rattus norvegicus with 18 samples.

Results

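The genes described here are 33 genes of innate immune signalling: Toll-like receptors and their adaptor, interleukins and chemokines, the subunits and inhibitors of the transcription factor NF-kB, adhesion molecules, inflammatory enzymes and the inflammasome. They were taken from a list of symbols. All 33 of them were found by RefSeq gene identifier among the 38445 genes in the data. RNA came from the dissected ventral tegmental area (VTA) of 18 adult male Sprague Dawley rats labelled WT. Control rats (numbered 1 to 6) were fed a Lieber-DeCarli liquid diet without ethanol for 15 or 16 days. Chronic ethanol rats (7 to 12) had the same kind of diet with 9% v/v ethanol for as long, and were taken with no withdrawal (0 h). Withdrawal rats (13 to 18) had the ethanol diet and were taken 24 h after it ended. Each library was made from 1 rat, and no rat was sampled more than once.

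Toll-like receptors recognise microbial products and molecules released by damaged cells, and most of them signal through the adaptor Myd88. The signal frees NF-kB from its inhibitors, and NF-kB then switches on cytokines, chemokines, adhesion molecules and its own inhibitors. In a second branch the subunit Relb pairs with the product of Nfkb2. In the brain many of the receptors, chemokines and adhesion molecules are expressed mainly by microglia, border macrophages, astrocytes and blood vessel cells. Innate immune genes have been studied in relation to alcohol because ethanol and its withdrawal can engage Toll-like receptor signalling in brain. Chemokines such as Cxcl10 and Ccl5 are also induced by interferons.

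Promoter sequences are shown for 3 members with a match to the NF-kB consensus whose levels are described below. They are RefSeq promoters of assembly GRCr8, a later build than that of the counts, and each run covers the 250 bases before the annotated start. Capitals mark matches to the NF-kB consensus and, in Cxcl10, to the core of the interferon-stimulated response element (ISRE core), on either strand. The Cxcl10 promoter lies at chr14:15988816-15989065 on the forward strand, that of Il6 at chr4:5894576-5894825 on the reverse strand and that of Nfkb2 at chr1:255108124-255108373 on the forward strand.
Cxcl10: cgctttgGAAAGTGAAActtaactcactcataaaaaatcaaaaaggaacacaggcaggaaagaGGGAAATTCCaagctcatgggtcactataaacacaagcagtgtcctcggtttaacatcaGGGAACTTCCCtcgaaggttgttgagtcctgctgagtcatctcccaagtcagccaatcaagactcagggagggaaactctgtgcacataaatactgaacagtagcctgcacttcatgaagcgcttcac
Il6: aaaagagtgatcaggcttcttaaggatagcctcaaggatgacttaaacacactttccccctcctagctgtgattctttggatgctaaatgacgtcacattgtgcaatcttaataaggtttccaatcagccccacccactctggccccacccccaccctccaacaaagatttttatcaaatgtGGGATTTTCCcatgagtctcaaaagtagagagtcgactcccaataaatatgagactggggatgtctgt
Nfkb2: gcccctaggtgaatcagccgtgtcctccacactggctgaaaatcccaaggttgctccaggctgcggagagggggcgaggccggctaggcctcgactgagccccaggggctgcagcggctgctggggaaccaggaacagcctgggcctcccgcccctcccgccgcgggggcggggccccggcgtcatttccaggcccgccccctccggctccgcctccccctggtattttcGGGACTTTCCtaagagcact

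In Cxcl10 the NF-kB matches begin 187, 128 and 127 bases before the start, the last 2 overlapping on opposite strands, and the ISRE core begins 243 bases before it. Il6 has its match 68 bases and Nfkb2 20 bases before the start. Shorter windows of 30 bases around the first match are given for an inhibitor, a chemokine and an adhesion molecule so that the matched letters can be read: Nfkbia at chr6:78597084-78597113, Cxcl1 at chr14:17479386-17479415 and Vcam1 at chr2:206742857-206742886, all on the reverse strand of GRCr8.
Nfkbia: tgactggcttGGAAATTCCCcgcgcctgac
Cxcl1: cctgtgctccGGGAATTTCCctggcctgga
Vcam1: tccccttgaaGGGATTTCCCtccgcctctc

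Promoters of 300 bases (250 before and 50 after the start) were found for 27 of the 33 members. The others were Ccl2, Ccl3, Ccl4, Ccl5, Relb and Nos2. Searched on both strands, the NF-kB consensus had a match in 11 of the 27 (40.7%) and in 7.51% of all 33469 promoters. The 11 were Tlr2, Il1r1, Il6, Cxcl1, Cxcl10, Nfkbia, Nfkb1, Nfkb2, Vcam1, Tnfaip3 and Socs3. The ISRE core was found in 5 of 27, namely Myd88, Casp1, Cxcl10, Cybb and Vcam1, and in 3.92% of all promoters. TTCNNNGAA, the core of a STAT site, was found in 3 of 27 (Myd88, Icam1 and Nlrp3) and in 8.87% of all promoters. Each motif was counted separately, so matches of different motifs may overlap. These are matches of letters, and binding was not measured.

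Libraries held 29.6 to 45.1 M counted fragments. Levels are in CPM, counts per M fragments of a library after TMM scaling. A gene with no fragment could still have had up to 3 counts (the 95% limit), which is 0.0665 to 0.101 CPM depending on the library. Reads had no molecular identifiers, so this limit covers counting error only. Microglial markers (10 genes, summed) were at 474 to 598 CPM in control, 415 to 744 in chronic ethanol and 495 to 611 in withdrawal rats, and the groups overlapped. The defining markers of the VTA, those of dopamine neurons, varied from 143 CPM summed in withdrawal rat 17 to 2684 in ethanol rat 12. In rat 17 most of that sum was Slc18a2 (70.6 CPM) and Ddc (42.4 CPM). Its Slc6a3 was 2.56 CPM, its Th 17.6 and its Pitx3 0.138, against at least 68.2, 68.9 and 1.21 elsewhere. Those transcripts were thus scarce in that library. Some libraries stood apart. Withdrawal rat 13 had 15740.5 CPM of pineal gland markers against at most 9.84 elsewhere. Its choroid plexus markers summed to 328 CPM, more than in any other rat, of which Ttr was 316 CPM. Kl was also highest there (10.2 CPM), but Folr1 and Kcnj13 were highest in rats 10 and 3. Control rat 3 had 34.2 CPM of border macrophage markers against at most 16.3 elsewhere. It also had 496 CPM of meningeal fibroblast markers against at most 163 elsewhere, and 762 CPM of mural cell markers against at most 290. Most of that mural sum was Myh11 (409 CPM) and Acta2 (176 CPM), and the other mural markers were not highest in that rat. Control rat 5 and ethanol rat 8 had 42.2 and 40.1 CPM of hindbrain Hox genes, and no other rat more than 4.57. Red blood cell markers (5 genes, summed) were at 185 to 527 CPM in control, 53.0 to 237 in chronic ethanol and 93.5 to 175 in withdrawal rats, so that control and withdrawal did not overlap. Neutrophil and monocyte markers (6 genes) were at 1.63 to 3.39, 0.963 to 2.01 and 1.48 to 3.51 CPM. The part of these lists in the results was not tested.

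Levels can be compared between genes only per length of transcript, here as CPM per kb of exon in the 6 control rats. Hmgb1, a nuclear protein that acts as an alarm signal when released, was highest at 16.2 ± 0.815 (SD, n = 6 here and below). It has many processed copies in the genome, and pairs that matched several places were not counted, so its level is uncertain. Nfkbia, the inhibitor that holds NF-kB in the cytoplasm, followed at 14.5 ± 4.41, then Il18, a cytokine released by the inflammasome, at 14.0 ± 1.59. Rela was at 11.3 ± 0.961, Vcam1 at 10.8 ± 1.47 and Nfkb1 at 10.0 ± 0.928. Among these 6, neighbours in the order overlapped within 1 SD of their means, except Il18 and Rela. All 6 lay above Tlr3, the receptor for double-stranded RNA, at 4.42 ± 0.603 CPM per kb. Among the receptors Tlr2 (1.63 ± 0.295), Tlr7 (1.39 ± 0.228) and Tlr4 (1.20 ± 0.179) were close together, and Tlr9, the receptor for DNA, was lowest at 0.326 ± 0.116.

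**Figure D1:**
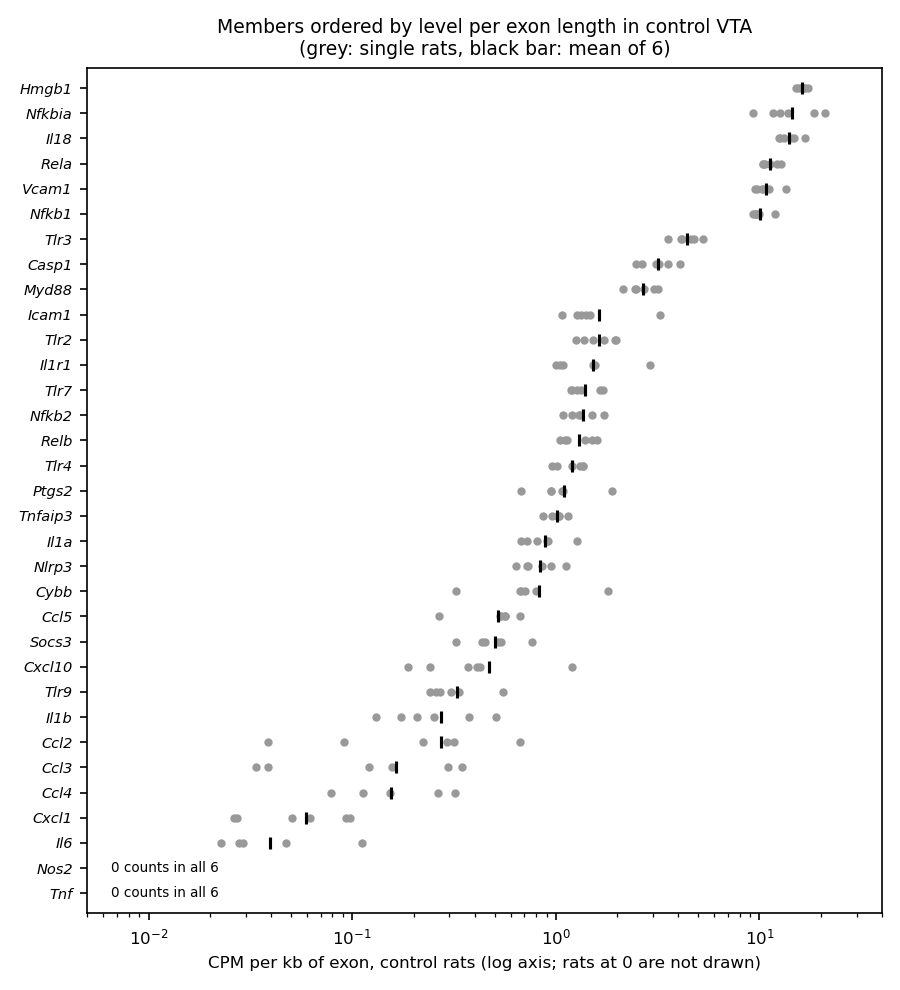
Level of the 33 members in the 6 control rats, as CPM per kb of exon on a log axis, ordered by the mean; grey points are single rats and black bars the mean of 6. Hmgb1, Nfkbia and Il18 are at the top between 14.0 and 16.2 CPM per kb, while Il6, Nos2 and Tnf are at the bottom, with no count of Nos2 or Tnf in any control rat; rats at 0 are not drawn.

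Most of the classical inflammatory cytokines lay at or near the count floor. Tnf, the tumour necrosis factor, had 1 fragment in 18 libraries, in ethanol rat 7. Nos2, the inducible nitric oxide synthase, had 2 fragments in all, 1 each in ethanol rat 12 and withdrawal rat 16. For both genes no library exceeded 3 counts, which allows up to 0.0665 to 0.101 CPM in a rat at 0. A median under 10 counts, taken here as near the floor, was also found for Cxcl1 (median 1, neutrophil chemokine), Il6 and Ccl4 (3 each), Ccl3 (6) and Ccl2 (9), so 7 of the 33 members were near it. Cxcl1 was at 3 counts or fewer in 15 rats, Il6 and Ccl4 in 11 and Ccl3 in 6. Il1b, the main secreted interleukin 1, stood just above with a median of 10 counts (6 to 31 counts in a rat), and Ccl5 with 12. The other interleukin 1 gene, Il1a, had a median of 61.5 counts. Ccl3 and Ccl4 overlap by 141 bases on opposite strands of chromosome 10, and fragments were counted by strand. Tnf, Nos2, Il6, Cxcl1, Ccl3 and Ccl4 did not pass the filter on low counts, which left 27 members to test. A member that passes through high counts in 1 group is more likely to differ, so the counts below are of 27, not of all 33. Ccl2 passed with all 18 libraries but not when only the 2 groups compared were fitted.

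None of the 27 members passed at an adjusted p under 0.05 in any of the 3 comparisons (edgeR's quasi-likelihood test, Benjamini-Hochberg over 17637 genes), where 0% of all genes tested passed in each. At an unadjusted p under 0.05, 1 of 27 members differed in chronic ethanol against control (5.84% of all genes tested), 4 of 27 in withdrawal against control (9.82% of all genes) and 5 of 27 in withdrawal against chronic ethanol (15.3% of all genes). The 1 member was lower in ethanol, where 2.74% of all genes were lower at that p. The 4 and the 5 were higher in withdrawal, where 6.24% and 9.38% of all genes were higher. Both include Ccl2, which is near the count floor and did not pass the filter with only the 2 groups compared. The median log2 change of the 27 members was -0.13 in chronic ethanol against control, 0.10 in withdrawal against control and 0.21 in withdrawal against chronic ethanol, beside -0.0039, 0.015 and 0.016 over all genes. In the same order 21, 8 and 3 of the 27 had a change below 0, beside 51.3%, 46.3% and 46.7% of all genes. The 21 became 17 without rat 3, and 23 without rat 4, rat 5 or rat 10. The 8 became 13 without rat 13, 5 without rat 3 and 4 without rat 18, and the 3 became 5 without rat 13. These comparisons share rats, so their values are set side by side and are not separate results. No withdrawal rat shared a library index with a control rat, which limits all values of withdrawal against control. In whole tissue, a different number of cells of a type and a different amount of RNA per cell cannot be told apart.

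**Figure D2:**
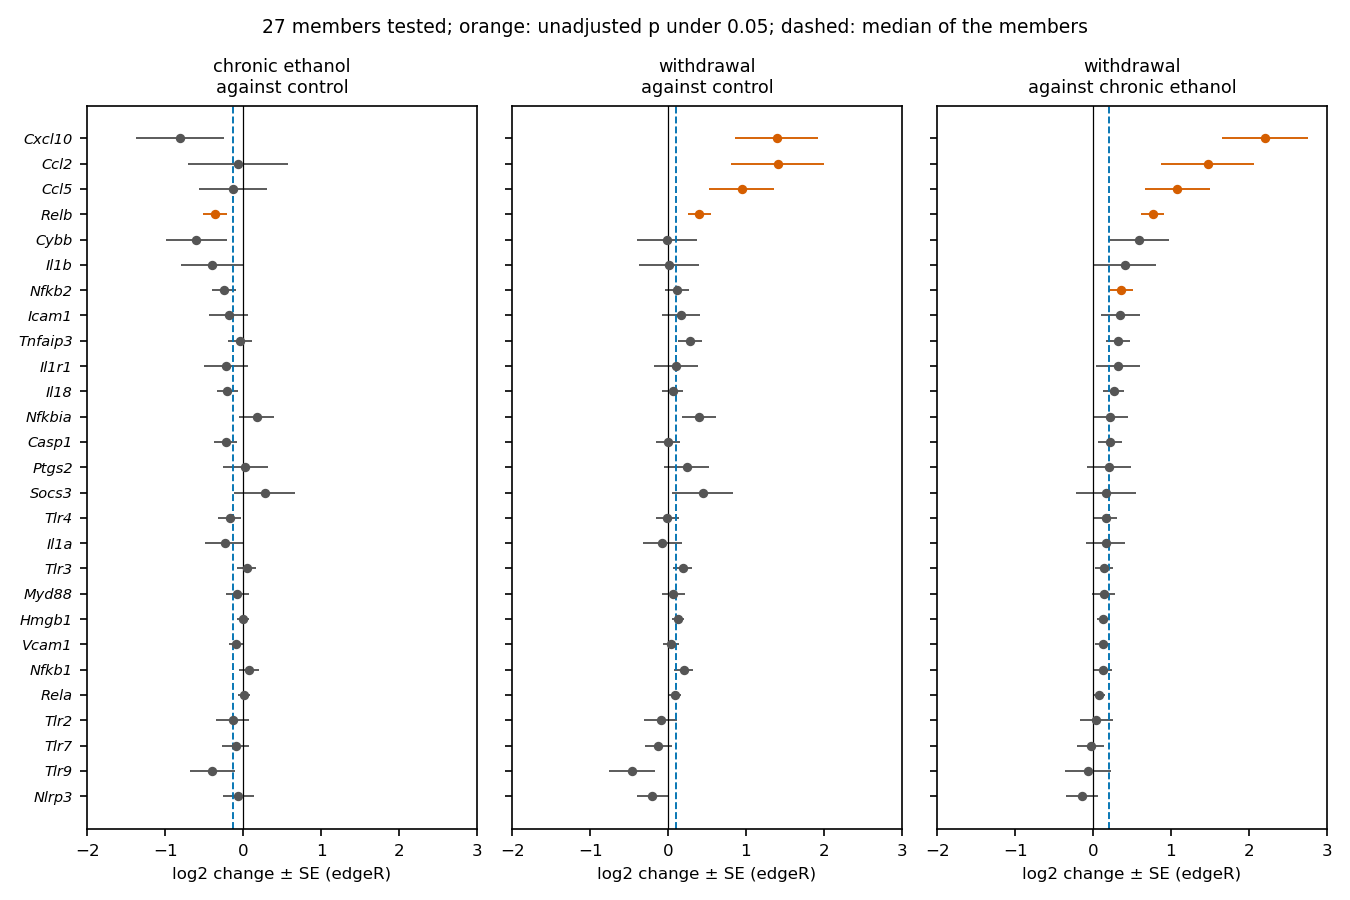
log2 change ± SE (edgeR) of the 27 members tested, in chronic ethanol against control, withdrawal against control and withdrawal against chronic ethanol; orange points have an unadjusted p under 0.05 and the dashed line is the median of the members. Ccl2, Cxcl10 and Ccl5 are the farthest right against control, Cxcl10, Ccl2, Ccl5 and Relb against chronic ethanol, and none of the 27 passed after adjustment.

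Among the NF-kB subunits, Relb gave the clearest separation of groups. Relb, the subunit of the second branch of the pathway (gene 100360982, chromosome 1, 80517081 to 80545019, Rnor_6.0), had a lowest, median and highest level of 3.40, 4.12 and 5.20 CPM in control rats. In chronic ethanol it was at 2.71, 3.35 and 3.83 CPM, and in withdrawal at 4.12, 5.50 and 7.58 CPM. Every withdrawal rat lay above every ethanol rat, while both groups overlapped with control. Groups did not overlap for 1 of 27 members (Relb) in this comparison, for 1.36% of all genes, and for 0 of 27 members in chronic ethanol or withdrawal against control (0.93% and 0.612% of all genes). The log2 change of Relb was 0.76 ± 0.15 (SE) in withdrawal against chronic ethanol (edgeR adjusted p = 0.0733). Against control it was -0.36 ± 0.15 in chronic ethanol (edgeR adjusted p = 0.834) and 0.40 ± 0.15 in withdrawal (edgeR adjusted p = 0.436).

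Withdrawal rat 13 had the highest Relb, and without that rat the change between withdrawal and chronic ethanol was 0.65 (edgeR adjusted p = 0.0584). Without withdrawal rat 18, the lowest of its group, it was 0.83 and passed (edgeR adjusted p = 0.0436). DESeq2 also called it (adjusted p = 0.000486). In both settings many other genes passed too, as counted over all genes in the section on processing, so these calls are not particular to Relb. Within the library index that 4 rats of each group share, withdrawal rats 13 to 16 had 5.91 ± 1.17 CPM of Relb. Ethanol rats 9 to 12 had 3.25 ± 0.581 CPM (SD, n = 4). These are part of the same rats, so that they do not overlap follows from the full groups and adds no separate result.

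Nfkb2, whose product pairs with Relb, had a narrow range in chronic ethanol rats, with 4.86, 5.13 and 5.69 CPM as lowest, median and highest. Control rats had 4.91, 5.95 and 7.85 CPM, and withdrawal rats 4.75, 6.29 and 9.89 CPM. In withdrawal, 4 of 6 rats lay above every ethanol rat and rat 18 lay below them all. The log2 change between withdrawal and chronic ethanol was 0.36 ± 0.15 (edgeR adjusted p = 0.292), and it was 0.21 without rat 13. Against control it was 0.11 in withdrawal and -0.042 without rat 13. Of the subunits of the classical branch, Rela was at 27.6 ± 2.35 CPM in control, 27.8 ± 2.36 in chronic ethanol and 29.3 ± 2.52 in withdrawal, and Nfkb1 at 39.6 ± 3.68, 41.8 ± 4.17 and 45.4 ± 11.9 CPM in the same order. Nfkb1 was 69.4 CPM in withdrawal rat 13 and at most 43.3 in the other withdrawal rats. Its log2 change in withdrawal was 0.20 against control and 0.12 against chronic ethanol, and without rat 13 it was 0.036 and -0.041.

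The groups overlapped for the inhibitors of the pathway, which are also its targets. Nfkbia ranged from 14.6 through a median of 20.7 to 32.8 CPM in control, from 14.6 through 26.3 to 34.2 in chronic ethanol and from 17.6 through 30.1 to 38.9 in withdrawal. Its log2 change in withdrawal against control was 0.40 ± 0.22 (edgeR adjusted p = 0.547). Tnfaip3, the ubiquitin-editing enzyme that ends NF-kB signalling, was at 6.89 ± 0.633 CPM in control, 6.69 ± 1.29 in chronic ethanol and 8.34 ± 2.28 in withdrawal. Withdrawal rat 13 had 12.9 CPM of it and the other withdrawal rats 6.87 to 7.84. Its log2 change in withdrawal was 0.28 against control and 0.32 against chronic ethanol, and 0.11 and 0.15 without rat 13. Socs3, which limits cytokine signalling through STAT factors, was 1.29 ± 0.374, 1.55 ± 0.889 and 1.74 ± 1.34 CPM. Its highest rats were withdrawal rat 13 (4.45 CPM) and ethanol rat 11 (3.33 CPM), and the next was 1.94 CPM in control rat 3. In withdrawal against control the log2 change of Socs3 was 0.44, and without rat 13 its direction turned (-0.099).

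**Figure D3:**
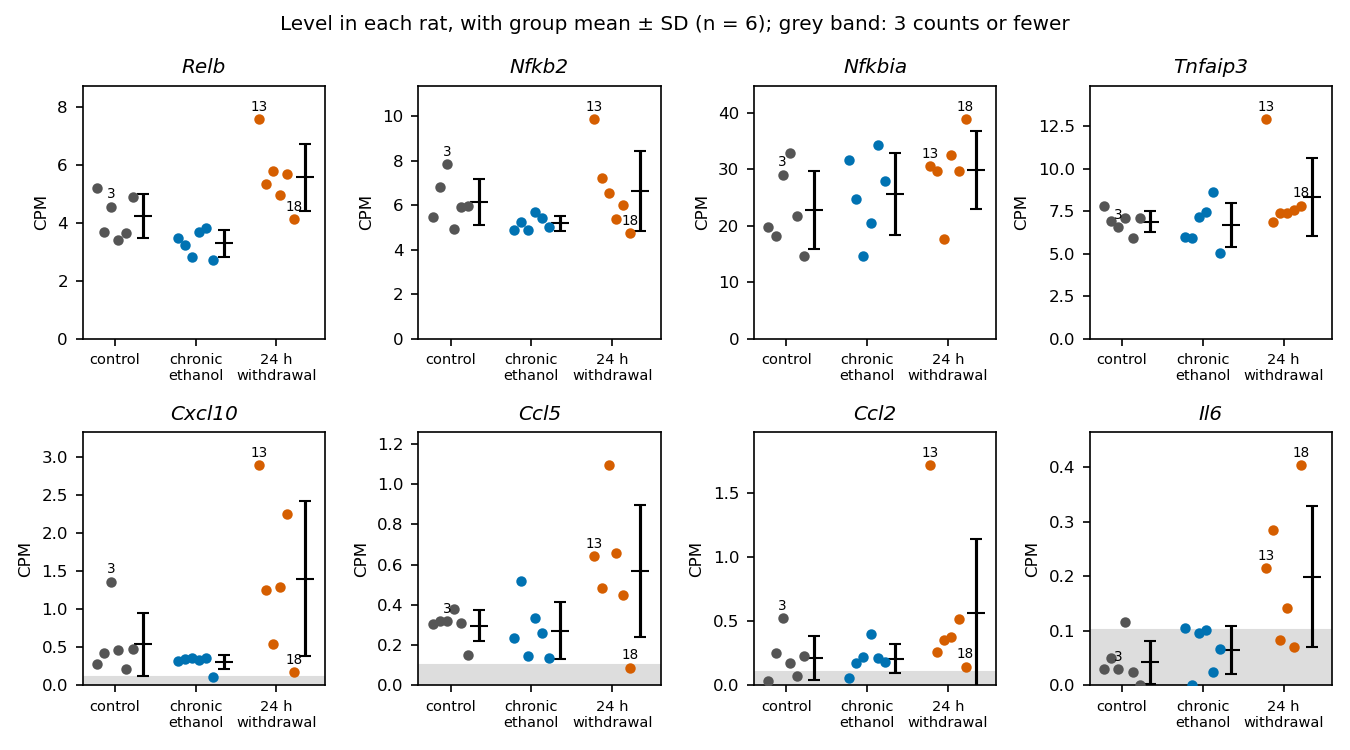
CPM in each rat for 4 genes of the NF-kB pathway (upper row) and 4 cytokines (lower row); points are rats, bars the group mean ± SD (n = 6), numbers mark rats 3, 13 and 18, and the grey band covers 3 counts or fewer at the shallowest library. For Relb the withdrawal rats (4.12 to 7.58 CPM) sit above all ethanol rats (2.71 to 3.83 CPM), and for Cxcl10 5 of 6 withdrawal rats do, with rat 18 among the lowest.

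Of the chemokines tested, Cxcl10 had the largest log2 change in withdrawal against chronic ethanol, while against control those of Ccl2 and Cxcl10 were close (1.41 and 1.39). Cxcl10, an attractant of T cells (gene 245920, chromosome 14, 17210733 to 17212930, Rnor_6.0), had a lowest, median and highest level of 0.212, 0.442 and 1.36 CPM in control, 0.111, 0.341 and 0.359 in chronic ethanol and 0.173, 1.27 and 2.89 in withdrawal. In withdrawal 5 of 6 rats lay above every ethanol rat, and rat 18 lay below every control rat. The log2 change was 2.21 ± 0.56 in withdrawal against chronic ethanol (edgeR adjusted p = 0.122). It was 1.39 ± 0.53 in withdrawal against control (edgeR adjusted p = 0.439) and -0.81 ± 0.56 in chronic ethanol against control (edgeR adjusted p = 0.969). DESeq2 called it in withdrawal against chronic ethanol (adjusted p = 0.0105), where that method called many genes and edgeR none. That change was 1.85 without rat 13 and 1.49 without rats 5, 8, 13 and 17, and the change against control was 0.45 without those 4 rats. The highest control rat was rat 3, and without it the change in chronic ethanol against control was -0.29, while that in withdrawal against control was 1.90.

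Interferon response genes (14 genes, summed) lay in the same order of groups, at 139 to 238 CPM in control, 108 to 149 in chronic ethanol and 155 to 373 in withdrawal. They were highest in withdrawal rats 13, 16 and 17 (373, 371 and 315 CPM), which had 2.89, 1.29 and 2.25 CPM of Cxcl10, and rat 14 had 1.25 CPM of Cxcl10 with 155 CPM of these genes. T cell markers (5 genes, summed) were at most 0.985 CPM in all rats but rat 13, which had 2.49. Of that sum Cd8a was 1.88 CPM. Cd2 was also highest in rat 13 (0.375 CPM), but Cd3e was 0.214 CPM there against 0.377 in control rat 3. Cd3g was 0.0268 CPM in rat 13 and Cd3d was 0. The part of interferon response genes and T cell markers in the level of Cxcl10 was not tested.

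Ccl5, another attractant of T cells, had a lowest, median and highest level of 0.152, 0.313 and 0.378 CPM in control, 0.133, 0.247 and 0.520 in chronic ethanol and 0.0864, 0.564 and 1.09 in withdrawal. Here 5 of 6 withdrawal rats lay above every control rat, and rat 18, with 3 counts, lay below them all. The log2 change was 0.95 ± 0.42 against control (edgeR adjusted p = 0.487) and 1.08 ± 0.42 against chronic ethanol (edgeR adjusted p = 0.265). Within the shared library index, withdrawal rats 13 to 16 had 0.720 ± 0.261 CPM and ethanol rats 9 to 12 had 0.218 ± 0.0968 CPM (SD, n = 4). This part leaves out rat 18, the lowest withdrawal rat, and rat 8, the highest ethanol rat (0.520 CPM). Fitted together with the library index, the change against control was 2.10, a value that links withdrawal to control through ethanol rats 7 and 8 only.

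Ccl2, the attractant of monocytes, rested on 1 library. Control rats had 0.0302, 0.201 and 0.521 CPM as lowest, median and highest, chronic ethanol rats 0.0520, 0.195 and 0.402 and withdrawal rats 0.144, 0.366 and 1.71. The highest value was rat 13, with 64 counts against at most 18 in any other rat. Being near the floor, Ccl2 did not pass the filter when only the 2 groups compared were fitted, which limits the values that follow. The log2 change in withdrawal was 1.41 ± 0.60 against control and 1.47 ± 0.60 against chronic ethanol (edgeR adjusted p = 0.480 and 0.278), and without rat 13 it was 0.63 and 0.70. Cxcl1 was also dominated by rat 13, with 19 counts against at most 5 elsewhere. It had 12 counts over the 6 control rats, 10 over chronic ethanol and 25 over withdrawal. Its lowest, median and highest levels were 0.0246, 0.0527 and 0.0907 CPM in control, 0, 0.0241 and 0.167 in chronic ethanol and 0, 0.0291 and 0.509 in withdrawal, so that the groups overlapped. Ccl3 had 28 counts over the 6 control rats, 29 over chronic ethanol and 48 over withdrawal, and Ccl4 had 27, 16 and 26, of which 15 were from rat 13.

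Il6, a cytokine that signals through STAT3, was sparse but not evenly so. It had 9 counts over the 6 control rats (0 to 4 in a rat), 15 over the chronic ethanol rats (0 to 4) and 43 over the withdrawal rats (2 to 14). Rat 18 had 14 counts, rat 14 had 10, rat 13 had 8 and rat 16 had 6, all above the highest rat of both other groups, while rats 15 and 17 did not exceed them. The gene did not pass the filter. With no filter its log2 change was 2.20 in withdrawal against control and 1.58 against chronic ethanol, with edgeR adjusted p of 0.354 and 0.343 over 29134 genes, and at such counts the fitted size depends on the method's prior count.

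The interleukin 1 genes did not separate the groups. Il1b was 0.360 ± 0.186 CPM in control, 0.272 ± 0.0936 in chronic ethanol and 0.360 ± 0.238 in withdrawal, with the highest values in rat 13 (0.831 CPM) and control rat 3 (0.666 CPM). Il1a was 1.75 ± 0.419, 1.49 ± 0.559 and 1.66 ± 0.516 CPM. Their receptor Il1r1 was 14.5 ± 6.91, 12.5 ± 2.42 and 15.6 ± 7.27 CPM, and the spread came from the same pair of rats, at 29.6 CPM in rat 13 and 27.8 CPM in rat 3, against at most 17.0 elsewhere. The log2 change of Il1r1 was 0.10 in withdrawal against control and -0.19 without rat 13, and in chronic ethanol against control it was -0.22 and 0.070 without rat 3. Il18 was 9.93 ± 1.13 CPM in control, 8.63 ± 0.805 in chronic ethanol and 10.3 ± 2.48 in withdrawal (log2 change between the last groups 0.26 ± 0.13, edgeR adjusted p = 0.354, and 0.14 without rat 13).

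The receptors and their adaptor overlapped between all groups. Tlr2, the receptor for bacterial lipoproteins, was 6.20 ± 1.12 CPM in control, 5.65 ± 1.85 in chronic ethanol and 5.80 ± 1.45 in withdrawal. Tlr4, the receptor for lipopolysaccharide, was 4.01 ± 0.598, 3.56 ± 0.683 and 3.97 ± 0.614 CPM. Tlr3 was 19.1 ± 2.61, 19.7 ± 3.17 and 21.7 ± 3.22 CPM. Tlr7, the receptor for single-stranded RNA, was 10.4 ± 1.71, 9.75 ± 1.84 and 9.53 ± 2.37 CPM. Tlr9 had 1.06 ± 0.376, 0.807 ± 0.0812 and 0.772 ± 0.383 CPM, with a log2 change of -0.46 ± 0.29 in withdrawal against control (edgeR adjusted p = 0.580). Without control rat 6, the highest, the Tlr9 change was -0.24, and without rat 13, the lowest, it was -0.30. Myd88 was 6.69 ± 0.969, 6.36 ± 0.847 and 6.99 ± 1.70 CPM. The lowest edgeR adjusted p among Tlr2, Tlr3, Tlr4, Tlr7, Tlr9 and Myd88 was 0.567.

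The inflammasome genes gave no separation either. Nlrp3, the sensor, was 4.74 ± 1.01 CPM in control, 4.55 ± 1.13 in chronic ethanol and 4.12 ± 1.18 in withdrawal, and Casp1, the protease that cuts Il1b and Il18 proteins, was 4.15 ± 0.760, 3.56 ± 0.721 and 4.13 ± 0.641 CPM. Of the inflammatory enzymes, Cybb, the catalytic subunit of the phagocyte oxidase, was 1.42 ± 0.867, 0.943 ± 0.395 and 1.40 ± 0.749 CPM, with 3.10 CPM in control rat 3 and 2.81 CPM in withdrawal rat 13. Ptgs2, the inducible cyclooxygenase, was 2.00 ± 0.746, 2.04 ± 0.907 and 2.36 ± 0.841 CPM. It had 1 rat apart in each group, control rat 5 at 3.42, ethanol rat 11 at 3.83 and withdrawal rat 13 at 3.97 CPM. Hmgb1 was 29.0 ± 1.46, 28.9 ± 1.85 and 31.5 ± 4.29 CPM.

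The adhesion molecules that bind leukocytes to vessel walls were led by control rat 3. Icam1 was 8.49 CPM in that rat and 2.79 to 3.82 in the other control rats, and 7.66 CPM in withdrawal rat 13 with 3.77 to 4.92 in the other withdrawal rats. Its means were 4.25 ± 2.11, 3.74 ± 0.640 and 4.76 ± 1.48 CPM in control, chronic ethanol and withdrawal. The log2 change of Icam1 was 0.17 in withdrawal against control and -0.025 without rat 13, and in chronic ethanol against control it was -0.18 and 0.13 without rat 3. Vcam1 was 32.5 ± 4.41, 30.6 ± 4.84 and 33.3 ± 1.99 CPM, and its highest rats were control rat 3 (40.8 CPM) and ethanol rat 10 (39.7 CPM). Endothelial markers (7 genes, summed) were 493 CPM in rat 3 and 539 CPM in rat 10, within a range of 336 to 564 CPM over all rats. The sums of mural, meningeal and border macrophage markers were highest in rat 3, the mural sum through Myh11 and Acta2. The part of these marker lists in the levels of Icam1 and Vcam1 was not tested.

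Across the 27 members tested, withdrawal rat 13 was the highest of all 18 rats for 14 and the lowest for 3 (Tlr7, Tlr9 and Nlrp3). Control rat 3 was the highest for 4 (Icam1, Vcam1, Cybb and Casp1). Ethanol rats 7 and 12 were the lowest for 6 each. The microglial marker sum was 521 CPM in rat 13 but its members did not move together there. Sall1, a transcription factor of microglia, was 222 CPM against at most 77.5 elsewhere, and Cx3cr1 and P2ry12 were lowest of all rats at 17.1 and 18.1 CPM. Without rat 13 the median log2 change of the members was 0.021 in withdrawal against control and 0.14 in withdrawal against chronic ethanol. Without control rat 3 the median was -0.045 in chronic ethanol against control.

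**Figure D4:**
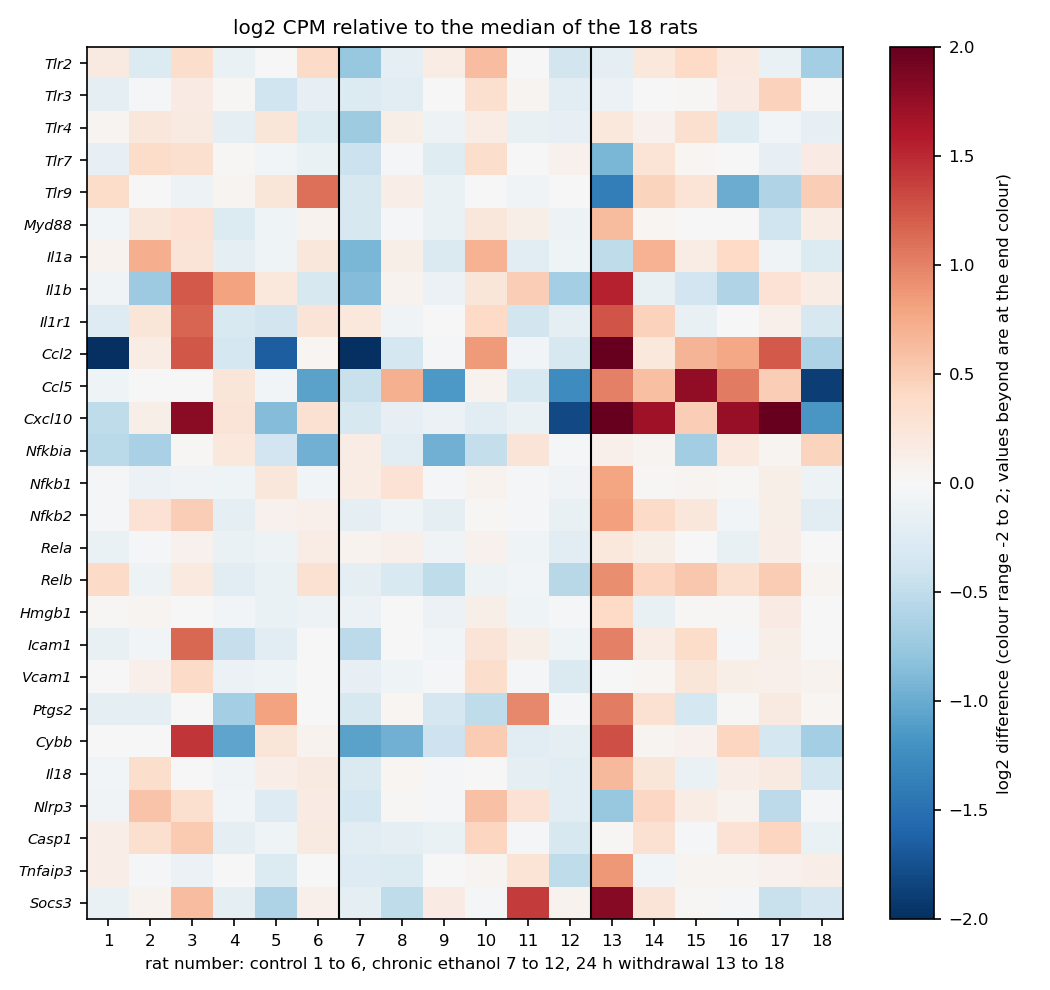
log2 CPM of the 27 members tested (rows, grouped by role) in each of the 18 rats (columns, grouped by diet), relative to the median of the 18 rats. The column of withdrawal rat 13 is red for most members and blue for Tlr7, Tlr9 and Nlrp3, control rat 3 is red for Icam1, Il1r1 and Cybb, and the Cxcl10 and Ccl5 rows are red in rats 13 to 17 and blue in rat 18.

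Of 75 further genes of these pathways (adaptors, kinases, other receptors, integrins), 66 were tested and 0 passed after adjustment in any comparison. At an unadjusted p under 0.05, 3 of the 66 differed in chronic ethanol against control (1 higher, 2 lower), 8 in withdrawal against control (5 higher, 3 lower) and 14 in withdrawal against chronic ethanol (13 higher, 1 lower). These are 4.55%, 12.1% and 21.2% of the 66, beside 5.84%, 9.82% and 15.3% of all genes. Their median log2 changes were -0.058, 0.078 and 0.12, beside -0.0039, 0.015 and 0.016 over all genes. Rel, the third NF-kB subunit with its own activation domain, was 1.66 ± 0.303 CPM in control, 1.44 ± 0.357 in chronic ethanol and 2.24 ± 0.383 in withdrawal, above every ethanol rat in 5 of 6 withdrawal rats (log2 change 0.64 ± 0.18, edgeR adjusted p = 0.138). Ikbkg, the regulatory subunit of the kinase that frees NF-kB, was 15.1 ± 1.48, 14.5 ± 0.609 and 18.4 ± 3.53 CPM, and all withdrawal rats lay above all ethanol rats, as for 1.36% of all genes (log2 change 0.35 ± 0.10, edgeR adjusted p = 0.164).

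Itgal, the leukocyte integrin chain that binds Icam1, was 3.47 ± 0.570 CPM in control, 2.12 ± 0.379 in chronic ethanol and 3.49 ± 0.864 in withdrawal. It was below every control in 5 of 6 ethanol rats (log2 change -0.71 ± 0.17, edgeR adjusted p = 0.281) and in withdrawal against chronic ethanol, where 5 of 6 withdrawal rats lay above every ethanol rat, the log2 change was 0.72 ± 0.17 (edgeR adjusted p = 0.0953). Aim2, the inflammasome sensor of DNA, was 1.69 ± 0.385, 0.966 ± 0.157 and 1.05 ± 0.361 CPM (log2 change against control -0.80 ± 0.22 in chronic ethanol and -0.68 ± 0.22 in withdrawal, edgeR adjusted p = 0.464 and 0.403). Both use the same control rats. Ncf1, a cytosolic subunit of the phagocyte oxidase, was 15.4 ± 2.89 CPM in control and 11.2 ± 1.54 in withdrawal (edgeR adjusted p = 0.403). Sele, an endothelial selectin, was 0.572 ± 0.150 and 0.932 ± 0.321 CPM in the same groups (edgeR adjusted p = 0.424). Zfp36, which destabilises cytokine messenger RNAs, was 7.11 ± 1.26 CPM in control and 13.9 ± 15.4 in chronic ethanol, where rat 11 had 45.3 CPM (edgeR adjusted p = 0.834).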

How the data were processed

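The deposited values are whole-number counts. Per the file headers, featureCounts 1.5.0 assigned fragments on the reverse strand to RefSeq exons. Alignment was with STAR 2.5.2a to Rnor_6.0, per the submitters' processing notes. The exon length per gene is also deposited. Symbols came from a RefSeq table of assembly GRCr8 (29322 of 38445 genes matched, and genes without a symbol held 1.21 to 1.86% of counts), used for names only. Gene coordinates refer to Rnor_6.0, promoter coordinates to GRCr8.

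Counts were scaled with TMM factors, filtered with filterByExpr and tested with edgeR 4.0.16 in R 4.3.3 (quasi-likelihood F-test, all 18 libraries, two-sided, Benjamini-Hochberg over 17637 genes, threshold 0.05). SEs were derived from F and the log2 change. The method was tested on simulated data. The first index in the library names is shared by rats 1 to 8, by rats 9 to 16 and by rats 17 and 18. No withdrawal rat thus shares an index with a control rat. In withdrawal against control, group and index cannot be told apart except through the chronic ethanol rats.

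The members and lists were chosen with earlier results of these data known, so they are no independent evidence. Members were described with values in every group, all 33 being accounted for. By rule, lowest, median and highest levels were given for members at an unadjusted p under 0.05, with groups that do not overlap, or with 1 library at least 3 times the next (and for Nfkbia, chosen after its values were seen), and the 3 partner genes with the lowest p were named per comparison. Of 75 partner genes, 74 matched a symbol (Ccr2 did not). Alternatives were RLE factors, no filter, 1 CPM in 6 libraries, DESeq2 1.42.0, limma-voom (limma 3.58.1), robust fitting, the 2 groups alone, a library index term, omission of single rats, and omission of rats 5, 8, 13 and 17. Leaving out rats 3 and 13 was added after the data were seen.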

Additional observations from a re-analysis of the deposited data

Results flagged for a closer look

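Each value here is a rat whose gap to the nearest rat of its group exceeded Dixon's 95% critical share of the group's range for 6 samples. Of 81 groups of 6 (27 members in 3 groups), 21 had such a rat. The nominal rate of about 1 in 20 assumes normal values and separate groups. CPM were not transformed and the groups share the same rats, so that rate does not apply here. No rate over all genes was computed, so the count is a description and not a result about the members.

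Withdrawal rat 13 was highest in 8 of them, with 0.831 CPM of Il1b (next 0.346), 29.6 of Il1r1 (next 17.0), 1.71 of Ccl2 (next 0.519), 69.4 of Nfkb1 (next 43.3), 7.66 of Icam1 (next 4.92), 3.97 of Ptgs2 (next 2.42), 12.9 of Tnfaip3 (next 7.84) and 4.45 of Socs3 (next 1.51). This rat also had pineal markers at 15740.5 CPM, and their part was not tested.

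Control rat 3 was highest in 4, with 27.8 CPM of Il1r1 (next 14.9), 1.36 of Cxcl10 (next 0.480), 8.49 of Icam1 (next 3.82) and 3.10 of Cybb (next 1.37). That rat also had the highest sums of meningeal fibroblast markers (496 CPM) and border macrophage markers (34.2 CPM). Their part was not tested. Control rat 5 had 47.0 CPM of Nfkb1 (next 39.4) and 3.42 of Ptgs2 (next 1.97). Control rat 6 had 1.79 CPM of Tlr9 (next 1.09) and was lowest for Ccl5 at 0.152 (next 0.302).

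Ethanol rat 11 had 3.83 CPM of Ptgs2 (next 2.01) and 3.33 of Socs3 (next 1.41). Ethanol rat 10, the rat with the highest microglial marker sum (744 CPM), had 39.7 CPM of Vcam1 (next 30.8) and 4.95 of Casp1 (next 3.64). Ethanol rat 12 was lowest for Cxcl10 at 0.111 CPM (next 0.312).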

How the results depend on the processing

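Over all genes edgeR called 0 in each comparison. DESeq2 called 46 in chronic ethanol against control, 47 in withdrawal against control and 294 in withdrawal against chronic ethanol. In the first of these, limma-voom, the 2 groups alone, the index as a term, leaving out rats 5, 8, 13 and 17 and leaving out rats 3 and 13 gave 2 each. In withdrawal against control, leaving out rats 3 and 13 gave 1. In withdrawal against chronic ethanol, leaving out rats 5, 8, 13 and 17 gave 2, and leaving out rats 3 and 13 gave 34. Leaving out 1 rat gave 0 to 4, 0 to 2 and 0 to 24 calls in the same order of comparisons. The highest counts came without rat 13 in the first (4) and second (2), and without rat 18 (24), rat 13 (22) or rat 11 (12) in the last.

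Members called stayed at 0 in every setting run, except 2 with DESeq2 (Relb and Cxcl10) and 1 without withdrawal rat 18 (Relb, a range of 0 to 1 over rats left out), all in withdrawal against chronic ethanol. These stand beside the calls over all genes given above for the same settings and are not particular to the members. In that comparison Relb had adjusted p from 0.0436 to 0.172 and Cxcl10 from 0.0507 to 0.252 with 1 rat left out, and 0.261 and 0.279 when the index was fitted too. The median log2 change of the members was -0.23 to -0.045, 0.021 to 0.18 and 0.14 to 0.25 with 1 rat left out. In withdrawal against control it was -0.017 with the index as a term and -0.00060 without rats 5, 8, 13 and 17. Of 81 member changes, none of them called, 11 changed sign with the index as a term, 19 without rats 5, 8, 13 and 17 and 17 without rats 3 and 13, so their direction is not fixed. Depth limits Tnf, Nos2, Il6, Cxcl1, Ccl3 and Ccl4 to single counts in most rats. No paired analysis was possible because every rat carries a number of its own.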

Other observations

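Withdrawal rat 18 had the highest levels of Il6 (0.403 CPM, 14 counts) and Nfkbia (38.9 CPM) of all 18 rats, and the lowest of Ccl5 (0.0864 CPM), Nfkb2 (4.75 CPM) and Il18 (7.29 CPM). Its Cxcl10 was 0.173 CPM, below the 5 other withdrawal rats (0.547 to 2.89 CPM). In withdrawal rat 13, by contrast, Cxcl10, Nfkb2 and Il18 were the highest of all rats (2.89, 9.89 and 14.5 CPM). S100a9, a marker of neutrophils and monocytes, was 1.45 CPM in rat 13 and 1.12 CPM in rat 18, and the next rat was at 0.820 CPM. These values were chosen after they were seen.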
